A study of Mus musculus with 16 samples.

Results

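Acute phase proteins are plasma proteins whose levels change with inflammation, and 6 genes that encode them were described in mouse gastrocnemius muscle: Lrg1, Lbp, Serpina3n, Hp, Cp and Saa3. They were taken by symbol, 6 of the 35415 genes in the deposited tables. Of the 6, 5 had enough reads to be among the 14749 genes tested, and Saa3 did not. The genes were chosen with earlier results of the same libraries known, and are taken here as selected on the comparison of the tumor with the control group, neither of which trained. The rule for the choice gives the 6 names without a comparison, so this is an assumption, and if other groups also informed the choice, their p-values are not independent of it. The comparison of the tumor with the control group is therefore given as a description, with no p-value for these genes.

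The libraries came from 16 wild-type male BALB/c mice, 4 in each of 4 groups, bought at 8 weeks of age. The control group (C) received saline and stood on a treadmill that did not move. The exercise group (E) received saline and trained on the moving treadmill for 4 weeks, on 6 days of each week, with runs of 60 min at 14 m/min. The tumor group (T) was injected under the skin of the hind limb region with CT26, a mouse colon carcinoma line, and stood on the treadmill, and the tumor and exercise group (TE) received CT26 cells and ran as the E group did. Every mouse was anesthetized for the injection. Not every inoculated mouse of the TE group formed a tumor, and the sources used here do not state whether the 4 sequenced mice did, nor which leg gave the muscle.

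In the acute phase response, cytokines of the interleukin-6 and interleukin-1 families reach the liver and raise the synthesis of a set of secreted proteins, while albumin and others fall. STAT3, C/EBP and NF-kappa B factors act on many of these genes. Some of the proteins are also made outside the liver, by neutrophils, macrophages, endothelial cells, adipocytes or muscle, so that a muscle library can contain their transcripts. Transcripts were measured here, not proteins. In bulk tissue, more cells of a type and more RNA per cell cannot be told apart.

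Among the 6 genes, Lrg1 encodes leucine-rich alpha-2-glycoprotein, a secreted protein that acts on TGF-beta signaling in blood vessels and is stored in neutrophil granules. Lbp encodes the protein that binds bacterial lipopolysaccharide and passes it to CD14. Serpina3n encodes a serine protease inhibitor, Hp encodes haptoglobin, which binds free hemoglobin, and Cp encodes ceruloplasmin, a copper-carrying ferroxidase. Saa3 encodes a serum amyloid A that is made mostly outside the liver. All 6 are protein-coding genes in GENCODE vM39 on GRCm39. Lrg1 lies at chr17:56426283-56429001 on the minus strand with 2 exons in its canonical transcript. Lbp lies at chr2:158148409-158174800 on the plus strand with 15 exons, and Serpina3n at chr12:104372810-104380597 on the plus strand with 5. Hp lies at chr8:110301759-110305804 on the minus strand with 5 exons, Cp at chr3:20011090-20063930 on the plus strand with 19, and Saa3 at chr7:46361422-46365576 on the minus strand with 4.

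The 250 bases before the canonical start of Lrg1, Lbp and Serpina3n are shown because these are the genes of the 6 whose ranges in the T and C groups did not overlap. They are given 5′ to 3′ on the strand of the gene, from GRCm39. The windows are chr17:56429002-56429251 (minus strand), chr2:158148163-158148412 (plus strand) and chr12:104372560-104372809 (plus strand), and capitals mark a match to the NF-kappa B consensus.
Lrg1: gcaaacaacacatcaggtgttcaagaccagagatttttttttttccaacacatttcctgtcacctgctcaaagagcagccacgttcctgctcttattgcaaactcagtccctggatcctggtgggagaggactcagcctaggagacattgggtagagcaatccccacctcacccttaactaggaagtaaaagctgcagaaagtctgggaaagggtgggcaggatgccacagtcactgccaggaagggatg
Lbp: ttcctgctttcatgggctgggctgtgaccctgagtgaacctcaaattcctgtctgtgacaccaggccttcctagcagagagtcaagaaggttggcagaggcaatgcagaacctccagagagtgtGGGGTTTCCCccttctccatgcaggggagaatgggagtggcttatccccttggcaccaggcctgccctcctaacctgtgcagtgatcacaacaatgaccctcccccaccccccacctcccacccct
Serpina3n: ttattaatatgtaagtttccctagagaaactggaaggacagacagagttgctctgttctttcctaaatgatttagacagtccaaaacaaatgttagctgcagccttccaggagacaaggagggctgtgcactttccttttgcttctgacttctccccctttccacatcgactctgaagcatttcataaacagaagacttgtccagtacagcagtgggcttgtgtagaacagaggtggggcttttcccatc

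Each window was searched on both strands for a STAT motif (TTCNNNGAA), a C/EBP motif (TTGCNNAA) and the NF-kappa B consensus. The NF-kappa B letters were found in 1 of the 6 genes, Lbp, as GGGGTTTCCC between 126 and 117 bases before the start. The STAT and C/EBP letters were found in the windows of 0 of the 6 genes. Among the windows of 21757 genes, 7.6% held the NF-kappa B letters, 7.7% the STAT letters and 9.3% the C/EBP letters. A match in letters does not show that a factor binds there.

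Library totals were 35628211 to 37635741 counts, so that 3 counts stood for 0.0797 to 0.0842 CPM (counts scaled to the library total), and 17631 to 18563 genes had at least 1 count. The CPM values of Hp, Lbp and Saa3 given below were also divided by the TMM normalization factor of each library. That factor was 0.9469 to 1.05, and the CPM of 3 counts does not include it. Of 12 muscle fiber markers, all were expressed, with a sum of 81170 to 94080 FPKM (fragments scaled to gene length and library total, so that levels can be compared between genes). Of 16 hepatocyte markers, 15 never exceeded 1 FPKM, and Alb, the gene of albumin, reached at most 0.683 FPKM. The exception was Cyp2e1, which adipocytes also express. The library of mouse 3 of the T group was the highest of its group for 5 of the 5 tested genes, and that of mouse 4 of the TE group was the highest for 4 of the 5. Differences without one of these libraries are given beside the results that they moved most. The labels name 1 batch for all libraries. The sum of 16 lymph node markers was 153.8 FPKM in mouse 4 of the TE group. In mice 1, 2 and 3 of that group it was 8.961, 8.745 and 5.626 FPKM. Its highest value in the other groups was 54.56 FPKM, in mouse 3 of the C group. All 16 markers were lower in T than in C and higher in TE than in T, with 0 called by edgeR. The part of lymph node tissue in the values of the members was not tested.

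Lrg1 was the most abundant of the 6 genes in every group. Its level was 8.92, 9.91, 8.86 and 10.1 FPKM in the C mice and 10.1, 11.2, 9.74 and 11.3 FPKM in the E mice. In the T mice it was 21.8, 17.6, 27.8 and 21.7 FPKM, and in the TE mice 16.6, 19.6, 19.5 and 27.7 FPKM. Each of the 8 mice given CT26 cells was above each of the 8 given saline, while C overlapped E and T overlapped TE. The group means ± SD were 9.44 ± 0.643 (C), 10.6 ± 0.777 (E), 22.2 ± 4.23 (T) and 20.8 ± 4.78 FPKM (TE), with n = 4 in each.

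Lbp was lowest in the C group, and its ranges overlapped between E and TE and between TE and T. Its level was 2.92, 3.69, 3.54 and 3.59 FPKM in the C mice and 4.42, 4.67, 6.22 and 5.87 FPKM in the E mice. In the T mice it was 7.46, 6.26, 16.3 and 7.61 FPKM, and in the TE mice 5.27, 6.29, 7.94 and 9.36 FPKM. Every E, T and TE mouse was above every C mouse, and mouse 3 of the T group stood well above the other T mice. The group means ± SD were 3.44 ± 0.348 (C), 5.29 ± 0.886 (E), 9.39 ± 4.61 (T) and 7.21 ± 1.80 FPKM (TE).

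Serpina3n showed the same order of group means with a wider spread. Its level was 1.69, 1.43, 1.46 and 1.26 FPKM in the C mice and 2.65, 4.73, 2.60 and 1.92 FPKM in the E mice. In the T mice it was 4.03, 3.82, 12.7 and 7.51 FPKM, and in the TE mice 2.84, 4.09, 5.56 and 8.14 FPKM. All mice of the other groups were above the C mice, whereas the ranges of E, T and TE overlapped. The group means ± SD were 1.46 ± 0.175 (C), 2.97 ± 1.22 (E), 7.01 ± 4.14 (T) and 5.16 ± 2.28 FPKM (TE). Close relatives of this gene were low, with at most 3.07 FPKM for Serpina3g and 1.89 FPKM for Serpina3c, but reads shared within the family make its level uncertain.

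The ranges of Hp overlapped between every pair of groups, and single mice weighed on its means. Its level was 2.17, 4.39, 3.31 and 2.13 FPKM in the C mice and 2.76, 14.6, 5.20 and 1.99 FPKM in the E mice. In the T mice it was 1.34, 3.26, 13.9 and 9.75 FPKM, and in the TE mice 4.30, 5.82, 4.14 and 5.19 FPKM. In CPM, the highest mouse was 9.72 times the lowest in the T group and 7.32 times in the E group, against 1.40 times in the TE group.

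Cp varied least among the groups. Its level was 1.50, 2.63, 2.31 and 2.32 FPKM in the C mice and 2.78, 3.47, 3.46 and 3.23 FPKM in the E mice. In the T mice it was 2.15, 1.91, 4.32 and 3.06 FPKM, and in the TE mice 2.55, 2.46, 2.91 and 3.67 FPKM. The E mice were all above the C mice, and the T and TE mice overlapped both.

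Saa3 was near the limit of detection. It had 4, 4, 2 and 5 counts in the C mice, 3, 1, 4 and 2 in the E mice, 8, 4, 8 and 24 in the T mice, and 4, 3, 6 and 24 in the TE mice. The sums were 15, 10, 44 and 37 counts, and 1 mouse in each of the T and TE groups gave most of the excess. The relatives Saa1 and Saa2 reached at most 0.647 and 0.290 FPKM.

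**Figure D1:**
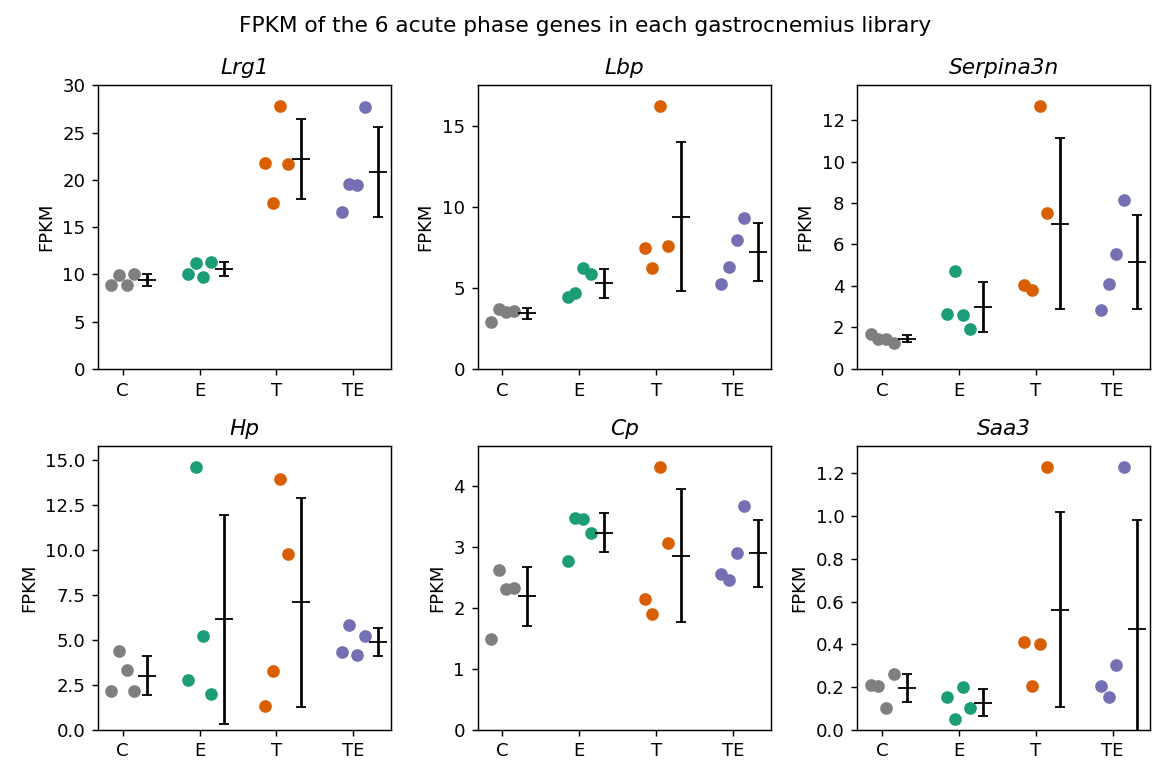
FPKM of each of the 6 genes in each mouse (points) by group, with the group mean and SD (bars, n = 4), each panel with its own axis. Lrg1 of the 8 mice given CT26 cells lies above that of the 8 given saline, and for Saa3 in the TE group the lower SD bar runs below 0 because of 1 mouse.

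In order of mean level, the C group had Lrg1 (9.44 FPKM), Lbp (3.44), Hp (3.00), Cp (2.19), Serpina3n (1.46) and Saa3. Lbp and Hp overlapped, as did Hp and Cp, and Cp and Serpina3n. In the T group the means were 22.2 FPKM for Lrg1, 9.39 for Lbp, 7.07 for Hp, 7.01 for Serpina3n and 2.86 for Cp. There Serpina3n, Hp and Lbp overlapped each other, and Lrg1 lay above all of them.

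The T group was first set beside the C group, the contrast taken as the one that chose the genes. Log2 fold changes were estimated with edgeR from counts. Serpina3n was 2.28 ± 0.381 (SE) higher on the log2 scale, Lbp 1.47 ± 0.239, Lrg1 1.26 ± 0.139, Hp 1.25 ± 0.599 and Cp 0.41 ± 0.203. The ranges of Lrg1, Lbp and Serpina3n, 3 of the 5 genes, did not overlap between the groups, and these 3 are among the genes that edgeR calls higher. With single libraries left out, 2 to 3 of the 5 were called. Of all tested genes, 0.515% were called higher, 0.163% lower, and 4.03% were higher without overlap. The assumed choice of the genes fixed these counts of members, and nothing is read from them. Without mouse 3 of the T group the differences were 1.84 for Serpina3n, 1.15 for Lrg1, 1.09 for Lbp, 0.70 for Hp and 0.16 for Cp.

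The TE group was then compared with the E group, which shares no mouse with the comparison assumed to have chosen the genes and asks whether trained mice with and without CT26 cells differed. Lrg1 rose, and the other tested genes did not pass the test. By the quasi-likelihood test of edgeR, with p-values adjusted over all tested genes by the Benjamini-Hochberg method, Lrg1 was 1.03 ± 0.138 (SE) higher on the log2 scale, a 2.04-fold difference (95% CI 0.74 to 1.32 on the log2 scale, adjusted p = 0.00425). Each of the 4 TE mice was above each of the 4 E mice. That is 1 of 5 genes called higher and 0 called lower, where 0.115% of all tested genes were called higher and 0.115% lower, and 1 of 5 without overlap, where the share of all tested genes was 2.68%. DESeq2 and limma-voom also called 1 of the 5, and at an unadjusted p under 0.05 edgeR had 3 of the 5, all with positive estimates, where 9.23% of all tested genes passed in either direction.

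Lbp and Serpina3n had positive estimates in the trained mice, with intervals that reached close to 0. Lbp differed by 0.50 on the log2 scale (95% CI 0.002 to 0.99, adjusted p = 0.538 in edgeR), and Serpina3n by 0.84 (95% CI 0.08 to 1.60, adjusted p = 0.482 in edgeR). The estimate was -0.29 for Hp (95% CI -1.52 to 0.94) and -0.11 for Cp (95% CI -0.54 to 0.31), so that differences of either sign fit both intervals. Without mouse 2 of the E group the Hp estimate became 0.62 and that of Serpina3n 1.16. Without mouse 4 of the TE group, Serpina3n was 0.56 and Lrg1 0.88 higher, and Lrg1 was still called (adjusted p = 0.0119 in edgeR).

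An exact permutation test (two-sided) of log2(FPKM + 1) between the 4 TE and 4 E mice allows p-values no smaller than 0.0286. This permutation test gave p = 0.0286 for Lrg1, 0.0571 for Saa3, 0.114 for Lbp, 0.143 for Serpina3n, 0.314 for Cp and 1 for Hp. Lrg1 was the only gene of the 6 to pass 0.05 in this test. Without mouse 1 of the TE group Lbp passed too, and without mouse 2 of the TE group Saa3 did.

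**Figure D2:**
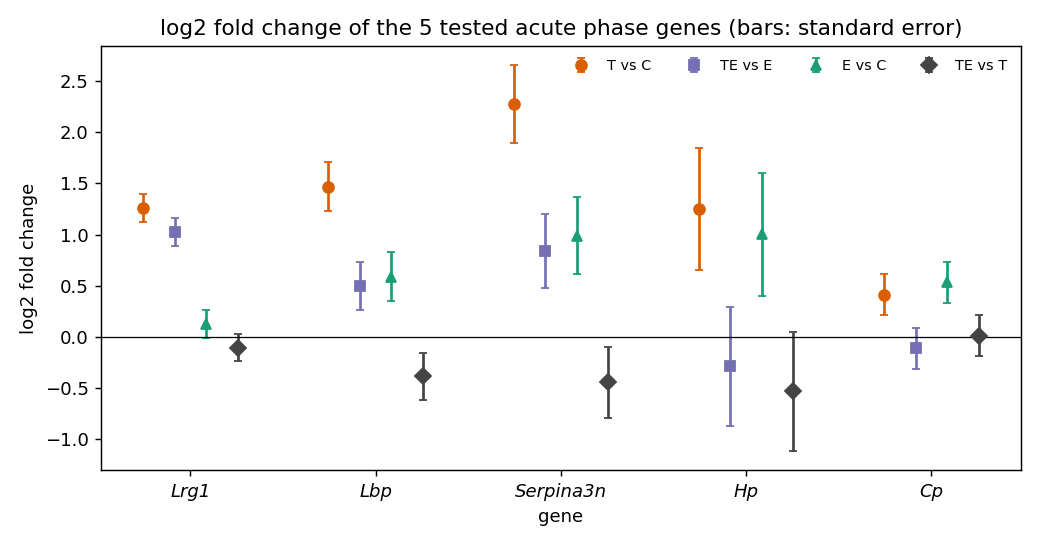
Log2 fold change from edgeR (points) with its standard error (bars) for the 5 tested genes in 4 comparisons, T vs C, TE vs E, E vs C and TE vs T, with a line at 0. For Lrg1, T vs C (1.26) and TE vs E (1.03) lie close together. For Lbp and Serpina3n, TE vs E (0.50 and 0.84) lies below T vs C (1.47 and 2.28). T vs C is the comparison assumed to have chosen the genes, and the interaction was not called for any of the 5.

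The TE group was also set beside the C group by overlap. Lrg1, Lbp and Serpina3n of all 4 TE mice were above those of all 4 C mice, 3 of 5 genes against 3.92% of all tested genes. The C mice also served in the comparison that chose the genes.

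Training without a tumor was examined in the E and C groups, which share the C mice with the choosing comparison. All 5 tested genes had higher estimates in the E mice, and 0 passed the adjusted test in edgeR, where 0.0881% of all tested genes were called. The estimates ± SE were 1.00 ± 0.599 for Hp, 0.99 ± 0.380 for Serpina3n, 0.59 ± 0.239 for Lbp, 0.53 ± 0.203 for Cp and 0.13 ± 0.140 for Lrg1. Serpina3n, Lbp and Cp, 3 of the 5, had an unadjusted p under 0.05 in edgeR, where 14.2% of all tested genes did. Their adjusted p-values in edgeR were 0.264, 0.291 and 0.259. DESeq2 and limma-voom also called 0. The same 3 genes did not overlap between E and C, where 5.06% of all tested genes were higher without overlap.

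Lrg1 differed from these 3 genes in that its E and C ranges overlapped, and its 95% CI, from -0.17 to 0.42, included 0. The Hp estimate was 0.10 without mouse 2 of the E group. In a fit of the E and C libraries alone, Lbp passed with an adjusted p of 0.0464 in edgeR.

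Connective tissue markers differed between the same groups. Of 11 fibroblast markers, 11 were above 0 in E vs C, with 0 called by edgeR, 10 at an unadjusted p under 0.05, and 3 called by each of DESeq2 and limma-voom. Their sum was 654 to 934 FPKM in C, 989 to 1244 in E, 555 to 902 in T and 743 to 783 in TE. Of 7 tendon markers, 3 (Tnmd, Fmod and Chad) were called higher in E than in C by edgeR. DESeq2 called 6 and limma-voom 4. The tendon sum was 26.1 to 30.9 FPKM in C, 52.9 to 84.9 in E, 23.4 to 41.8 in T and 25.7 to 37.6 in TE. In TE vs E, 2 tendon markers (Tnmd and Fmod) were called lower by edgeR, while DESeq2 called 5 and limma-voom 3. There 11 of 11 fibroblast markers lay below 0, with 0 called by edgeR, 2 by DESeq2 and 1 by limma-voom. Of these, 8 had an unadjusted p under 0.05 in edgeR. The part of these cells in the values of the members in E vs C and TE vs E was not tested.

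Training in mice given CT26 cells was examined in the TE and T groups, which share the T mice with the choosing comparison. Of the 5 genes, 0 passed, at an adjusted or an unadjusted p under 0.05 in edgeR, and DESeq2 and limma-voom called 0. The share of all tested genes was 0% at the adjusted and 5.88% at the unadjusted threshold. The estimates were -0.11 for Lrg1 (95% CI -0.39 to 0.18), -0.39 for Lbp (95% CI -0.88 to 0.10), -0.45 for Serpina3n (95% CI -1.19 to 0.29), -0.54 for Hp (95% CI -1.77 to 0.69) and 0.009 for Cp (95% CI -0.42 to 0.43). Without mouse 3 of the T group the estimates were 0.005 for Lrg1, -0.007 for Lbp, -0.016 for Serpina3n, 0.008 for Hp and 0.26 for Cp.

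The difference between the tumor effects with and without training was tested as an interaction, which uses all 16 libraries, those of the choosing comparison included. Its estimates were negative for all 5 genes: -0.23 for Lrg1, -0.98 for Lbp, -1.44 for Serpina3n, -1.54 for Hp and -0.52 for Cp. By edgeR, 0 of the 5 passed the adjusted test, where 0% of all tested genes did, and 2 had an unadjusted p under 0.05, Lbp (adjusted p = 0.439) and Serpina3n (adjusted p = 0.454), where 9.21% of all tested genes did. DESeq2 and limma-voom called 0. A difference between the tumor effects was thus not shown for any of the 5. Without mouse 3 of the T group the interaction estimates were -0.12 for Lrg1, -0.59 for Lbp, -1.002 for Serpina3n, -0.99 for Hp and -0.27 for Cp. That of Hp was -0.63 without mouse 2 of the E group and -0.33 with limma-voom.

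The median of the 5 log2 differences was 1.26 in T vs C, 0.50 in TE vs E, 0.59 in E vs C, -0.39 in TE vs T and -0.98 in the interaction, where the median of all tested genes lay within 0.003 of 0. If the genes were chosen for high values in T over C, the choice itself raises the median in T vs C and E vs C and lowers it in TE vs T and the interaction, while TE vs E shares no mouse with it. This holds as far as T vs C alone informed the choice.

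Other acute phase genes were examined from a list of 36, all of which the tables held. Of these, 14 were tested, and most of the plasma proteins of the liver, such as Saa1 and Saa2, were not. This list and the gene lists that follow were chosen with earlier results of these libraries known. Their p-values, those in T vs C included, may therefore not be independent of the choice. In T vs C, 12 of the 14 were above 0 with a median of 0.79 log2, and 2 were called higher: C4b, a complement component (1.94 ± 0.386, adjusted p = 0.0314 in edgeR), and Serping1, the inhibitor of complement C1 (0.67 ± 0.147, adjusted p = 0.0467 in edgeR). DESeq2 called 3 of the 14 and limma-voom 0. By edgeR, 8 had an unadjusted p under 0.05, where 2093 of all 14749 tested genes did. In TE vs E, 11 of the 14 were above 0 with a median of 0.28, and 0 were called by edgeR, DESeq2 or limma-voom. Only 1, Cfb, had an unadjusted p under 0.05 in edgeR, where 9.23% of all tested genes did. In E vs C, 13 of the 14 were above 0 with a median of 0.59. With edgeR 0 were called, and DESeq2 and limma-voom each called 2. At an unadjusted p under 0.05 in edgeR, Serping1 and Steap4 were higher and Lcn2 was lower (-2.40 log2). In E vs C 14.2% of all tested genes passed that threshold.

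The calls of C4b and Serping1 were lost when single libraries were left out. Leaving out mouse 1, 2, 3 or 4 of the C group, or mouse 3 of the T group, ended the call of C4b, and 13 of 16 such omissions ended that of Serping1. C4b was 1.37 ± 0.594 (C), 2.26 ± 1.04 (E), 5.20 ± 3.01 (T) and 3.54 ± 0.680 FPKM (TE), and Serping1 was 42.1 ± 4.09 (C), 62.2 ± 6.23 (E), 65.8 ± 21.1 (T) and 62.1 ± 6.79 FPKM (TE). Serping1 had thus nearly the same mean in the E, T and TE groups. Of 10 genes for proteins that fall in the acute phase, 5 were tested and 0 were called in any comparison by edgeR, DESeq2 or limma-voom. At an unadjusted p under 0.05 in edgeR there were 3 of these in E vs C, Alb, Cyp2e1 and Rbp4, all higher in E, 1 in the interaction (Alb, with a negative estimate) and 0 in the other comparisons. In T vs C, 5 of the 5 lay above 0, with a median of 0.70 log2.

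Of 31 genes for cytokines, receptors and factors that induce acute phase genes, 27 were tested. Il6 itself reached at most 0.495 FPKM. Osmr, the receptor subunit for oncostatin M, was called in both comparisons of mice with and without CT26 cells. Osmr rose by 1.05 ± 0.146 on the log2 scale in T vs C (adjusted p = 0.00324 in edgeR) and by 0.94 ± 0.145 in TE vs E (adjusted p = 0.00699 in edgeR). Its level was 2.88 ± 0.418 (C), 3.08 ± 0.350 (E), 5.88 ± 1.54 (T) and 5.73 ± 0.777 FPKM (TE).

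Stat3, the factor downstream of these receptors, rose by 0.56 in T vs C (adjusted p = 0.00830 in edgeR, 0.0570 when only the T and C libraries were fitted) and was 0.31 higher in TE vs E (adjusted p = 0.198 in edgeR). Fkbp5, a target of the glucocorticoid receptor, rose by 1.80 in T vs C (adjusted p = 0.0451 in edgeR). That call ended in 10 of 16 omissions of a library and in 4 of 7 other alternatives, the replicate block and limma-voom among them. In T vs C, 3 of the 27 were thus called higher by edgeR, 7 were called by DESeq2 and 2 by limma-voom. At an unadjusted p under 0.05 in edgeR, 13 were higher and 1 lower, where 2093 of all 14749 tested genes passed in either direction. In TE vs E, 1 of the 27 was called by edgeR, 3 by DESeq2 and 1 by limma-voom, with 23 above 0. At an unadjusted p under 0.05 in edgeR, 8 were higher and 1 lower, where 9.23% of all tested genes passed in either direction. For DESeq2 and limma-voom the share of all tested genes is not given here. Of 24 genes for partners of the 6 proteins, such as Cd14, Tlr4, Cd163 and Lrp1, 18 were tested. With edgeR 0 of the 18 were called in any comparison. At an unadjusted p under 0.05 in edgeR, 4 were higher in T vs C and 4 in E vs C. In TE vs E 1 was higher and 2 were lower, in TE vs T 0 passed, and 3 had negative interaction estimates. Of all tested genes, 2093 of 14749 passed in T vs C, 9.23% in TE vs E and 14.2% in E vs C. In TE vs T 5.88% of them passed, and in the interaction 9.21%. DESeq2 called 2 of the 18 in T vs C, and limma-voom called 0.

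**Figure D3:**
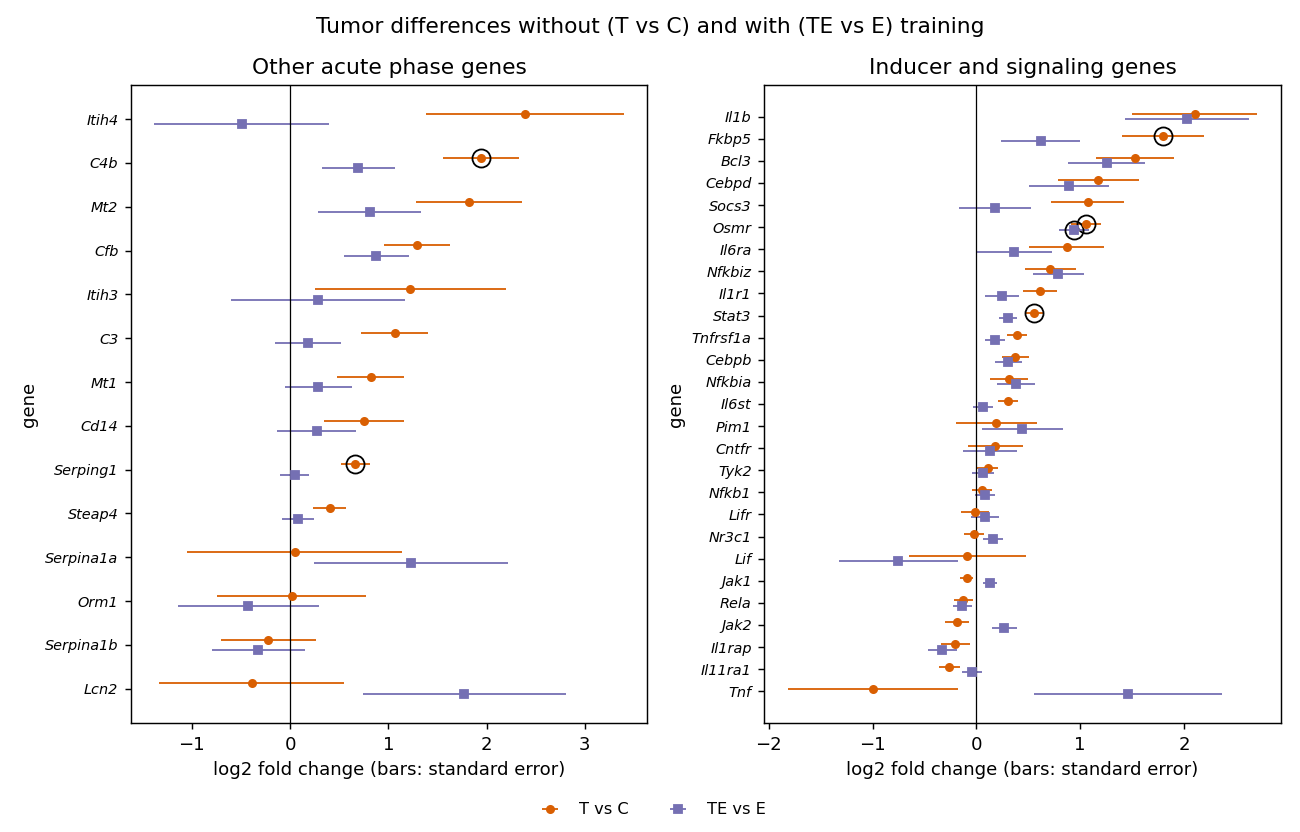
Log2 fold change (points, with standard errors as bars) of the 14 other acute phase genes and the 27 inducer and signaling genes tested, in T vs C (orange circles) and TE vs E (purple squares), with open rings around called values. Osmr is ringed in both comparisons, and C4b, Serping1, Stat3 and Fkbp5 in T vs C.

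The genes most like each member were found by Pearson r over the log2 CPM of all 16 libraries, among all tested genes. These values describe libraries that share their group differences, so r within groups is given too. Lrg1 was most like Osmr (r = 0.963, within groups 0.713), followed by St14 (0.927, within groups 0.666) and Retnlg, a neutrophil gene (0.926, within groups 0.542). Lbp was most like Entpd1 (0.945, within groups 0.824), Foxo3 (0.934, within groups 0.844) and Sema3f (0.911, within groups 0.722). Serpina3n was most like Tgm2 (0.928, within groups 0.798), C4b (0.919, within groups 0.768) and Tmem176a (0.911, within groups 0.938).

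Hp was most like Cidec (r = 0.879, within groups 0.898) and Lgals12 (0.875, within groups 0.920), which are both genes of lipid droplets in adipocytes, and Trf, the gene of transferrin (0.872, within groups 0.860). Cp was most like Map4k4 (0.889, within groups 0.872), C1s1 (0.888, within groups 0.839) and Carmil1 (0.880, within groups 0.854). Among the members, r over all libraries was 0.896 for Lbp and Serpina3n, 0.877 for Lrg1 and Lbp, 0.874 for Lrg1 and Serpina3n, and lowest for Lrg1 and Hp (0.332). These values carry the group differences for which the genes were chosen. Within groups the order was another: Lbp and Cp were most alike (0.821), then Lrg1 and Lbp (0.749) and Serpina3n and Hp (0.725), while Lbp and Serpina3n were at 0.631 and Lrg1 and Hp at 0.254.

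The summed level of neutrophil markers ranged higher in the groups given CT26 cells. The sum of 15 markers was 1.97 to 18.4 FPKM in C, 2.27 to 9.56 in E, 16.3 to 90.1 in T and 21.5 to 41.8 in TE, with Elane at 0 in all libraries. Its overlap between C and T came from mouse 1 of the C group, in which Lcn2, itself an acute phase gene, made up 15.8 of 18.4 FPKM. Without Lcn2, left out after its values were seen, the sum of the other 14 was 1.58 to 7.78 FPKM in C, 1.83 to 8.67 in E, 15.5 to 83.7 in T and 20.6 to 35.8 in TE, so that all mice given CT26 cells were above all given saline, as for Lrg1. Of 11 tested markers, 5 were called higher in T vs C by edgeR. In TE vs E, 11 of 11 were above 0, with 0 called by edgeR or limma-voom, 4 by DESeq2 and 6 at an unadjusted p under 0.05 in edgeR. Mouse 4 of the E group and mouse 4 of the TE group were the highest of their groups in both the sum and Lrg1, and mouse 2 of the T group and mouse 1 of the TE group the lowest in both. In the T group the highest sum was in mouse 4 (Lrg1 of 21.7 FPKM) and the highest Lrg1 in mouse 3 (27.8 FPKM, with a sum of 39.3 FPKM). In the C group mouse 4 was the highest in Lrg1 (10.1 FPKM) and the lowest in the sum, with or without Lcn2. The part of neutrophils in the level of Lrg1 was not tested.

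The summed level of erythroid markers, such as the hemoglobin genes, was higher in each mouse given CT26 cells than in each given saline, and unlike Lrg1 it did not overlap between T and TE. The sum of 8 markers was 362 to 529 FPKM in C, 393 to 582 in E, 736 to 823 in T and 864 to 1274 in TE, and 0 of the 8 were at 0 in all libraries. Of 7 tested markers, 4 were called higher in T vs C and 5 in TE vs E by edgeR. Mouse 3 of the T group, the highest in Lrg1 among the T mice, was not the highest in this sum, while mouse 4 of the TE group was the highest of its group in both. The part of red blood cells in the level of Lrg1 was not tested. The sum of 12 endothelial markers overlapped between all groups. It was 181 to 231 FPKM in C, 222.5 to 246 in E, 189 to 262 in T and 179 to 236 in TE. Of 11 tested, 7 were above 0 in T vs C and 6 in TE vs E. By edgeR, Kdr was called lower in T vs C and 0 were called in TE vs E. DESeq2 called 5 and 3. Sele (5.135 and 4.682) and Selp (2.305 and 2.123) were not called by edgeR. The part of endothelial cells was not tested.

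Macrophage markers were 59.1 to 115 FPKM in sum in C, 64.4 to 120 in E, 76.2 to 173 in T and 75.8 to 154 in TE. All 13 were above 0 in T vs C, with 0 called by edgeR or limma-voom and 1 by DESeq2. At an unadjusted p under 0.05 in edgeR there were 5, where 2093 of all 14749 tested genes passed. The part of macrophages in the level of Serpina3n and Lbp was not tested.

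Cidec, an adipocyte gene, was picked above for its likeness to Hp over these libraries, and its levels are given as a description. It was 0.976, 5.25, 2.93 and 1.59 FPKM in the C mice, 3.92, 15.1, 8.52 and 2.97 in the E mice, 1.23, 3.33, 12.5 and 7.61 in the T mice, and 4.70, 5.36, 7.72 and 3.20 in the TE mice. The mice highest in Hp, mouse 2 of the E group and mouse 3 of the T group, were also the highest of their groups in Cidec, whereas in the TE group mouse 2 was highest in Hp and mouse 3 in Cidec. Of 10 adipocyte markers, 8 were above 0 in E vs C with a median of 1.39 log2. There 0 were called by edgeR, DESeq2 or limma-voom, and 5 had an unadjusted p under 0.05 in edgeR. In T vs C, 9 of the 10 were above 0 (median 0.62). Below 0 were 9 of the 10 in TE vs E (median -0.51), 8 in TE vs T (-0.11) and 10 in the interaction (-1.065). In these comparisons too, edgeR called 0.

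The summed adipocyte level did not follow Hp in the same way. It was 1150 to 1449 FPKM in C, 1074 to 1572 in E, 1075 to 1947 in T and 1007 to 1136 in TE, most of it from Car3 and Fabp4, which muscle fibers and capillaries also express. The hepatocyte sum, which was mainly Cyp2e1, was 2.93 to 18.7 FPKM in C, 10.4 to 67.4 in E, 5.39 to 51.0 in T and 11.5 to 25.1 in TE. The part of adipocytes in the level of Hp was not tested.

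**Figure D4:**
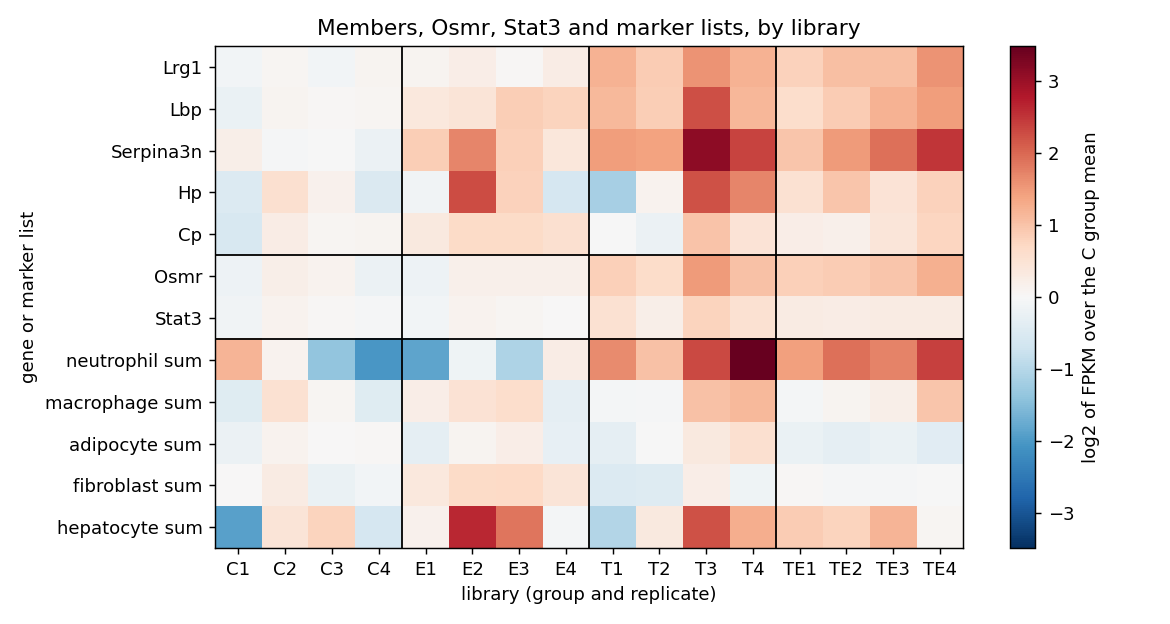
Log2 of FPKM over the mean of the C group (color) for the 5 tested genes, Osmr, Stat3 and the summed FPKM of 5 marker lists in each of the 16 libraries (columns, group and replicate). Lrg1 and Osmr are raised in all T and TE libraries, and the neutrophil sum is highest in T4. Hp and the hepatocyte sum, which is mainly Cyp2e1, are both high in E2 and T3.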

How the data were processed

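RNA from the gastrocnemius muscle of 16 mice, 4 in each group, was sequenced. Per the labels and the methods, the authors trimmed reads with fastp 0.20.1, aligned them to GRCm39 with HISAT2 2.1.0, counted them per gene with HTSeq 0.11.2 and named DESeq2 as a tool. The annotation release and strand setting are not given in the sources used here. The authors deposited raw counts and FPKM values, and the FPKM of 16037 of 16037 genes checked equalled counts per length and library total within 1%. The counts do not separate PCR copies from original fragments. Standard errors and intervals come from the fit over the mice and include the variation between them.

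The members and lists were chosen with earlier results of these data known. The genes named were the 6 members, the listed genes called at an adjusted p under 0.05, the 3 genes most like each member by r, and paralogs of 1 FPKM or more. Counts were tested with edgeR 4.0.16 in R 4.3.3 (TMM, filterByExpr, quasi-likelihood test, 1 coefficient per group, all libraries, two-sided), with Benjamini-Hochberg adjustment over 14749 genes. FPKM were tested as log2(FPKM + 1) by exact permutation. Figures used matplotlib 3.10.9 in Python 3.11.15. Replicate numbers name different mice. Of 24 pairs of libraries with the same number, 5 had a correlation of deviations over 0.1 (range -0.241 to 0.214), so samples were not paired. No pair of replicates had counts within sampling noise. The tables held 0 columns of other samples. Alternatives were DESeq2 1.42.0, its size factors, no filter, limma 3.58.1 voom with sample weights, the groups compared alone, a replicate block, a fold threshold of 2, another pseudocount (0.1), an FPKM minimum of 1, and each library left out. The procedure was tested on simulated data. Sequences came from GRCm39.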

Additional observations from a re-analysis of the deposited data

Results flagged for a closer look

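A sample was held to stand apart from its group of 4 when its gap to the nearest sample, divided by the range of the group, was above the critical value of Dixon's test at 95%. Of 24 groups tested, 2 had such a sample, and chance gives about 1 in 20. For Lbp the library of mouse 3 of the T group had 40.6 CPM against 19.9 CPM in the nearest, a ratio of 0.843. For Saa3 the library of mouse 4 of the TE group had 0.642 CPM against 0.166 CPM in the nearest, a ratio of 0.852. In the T group, Saa3 also had 24 counts in 1 mouse, which was not beyond the critical value.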

How the results depend on the processing

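The call of Lrg1 in TE vs E held in all 24 alternatives, with an adjusted p of 0.00153 to 0.0227 when single libraries were left out (edgeR) and a log2 difference of 0.88 to 1.13. With the replicate block, 1 of the 5 genes was called in TE vs E, and the numbers did not pair the mice. In E vs C, 1 gene (Lbp) was called when only the groups compared were fitted. Other acute phase genes called in T vs C fell from 2 to 1 with a fold change above 2 and to 0 with limma-voom, with only the groups compared, and without mouse 3 of the T group and mouse 4 of the TE group together, an alternative chosen after seeing the data. They were 3 with DESeq2 and with no filter on low counts, and 0 to 3 with single libraries left out. Inducer genes called in TE vs E went from 1 to 0 with a fold change above 2 and to 3 with DESeq2 (Bcl3, Il1b and Osmr). The genes with separate FPKM in TE vs E were 1 to 2 with single libraries left out. Some uncalled estimates changed sign. Hp in TE vs E became 0.34 with limma-voom and ranged from -0.57 to 0.62 with single libraries left out. In TE vs T, Hp became 0.14 with limma-voom and ranged from -0.88 to 0.008, Lrg1 from -0.25 to 0.005 and Cp from -0.14 to 0.26 with single libraries left out. The cause of these changes was not tested. With 4 mice in a group, and at most 24 counts of Saa3 in any library, small differences in Saa3, Hp and Cp were not detectable.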
